A study of Mus musculus with 2 samples.

Results

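The regions described here are stretches of H3K36me2 of intermediate length that were called in wild-type (WT) regulatory T (Treg) cells and shared no base with any region called in Nsd2 knockout (KO) cells. They were selected on the authors' calls, as regions of the WT list on chromosomes 1 to 19 and X with a length of at least 1000 bp and under 4000 bp and no base in the KO list. There were 2469 such regions among 7709 WT regions of that length, or 32.0%, and the remaining 5240 shared at least 1 base with a KO region. Over all lengths on these chromosomes the share was higher, with 38222 of 54422 WT regions, or 70.2%, having no base in KO. Both lists together held 94272 regions, of which 39745 were from the KO library and 54527 from the WT library. The KO library came from mice with a conditional deletion of Nsd2 in Treg cells and the WT library from wild-type mice. Both were made from splenic Treg cells on the C57BL/6 background. The sources used here do not give the Cre driver, the antibody, the age and sex of the mice or any pooling of animals. Each genotype had 1 library, of 14789700 tags for KO and 17158154 tags for WT, so no difference between them could be tested. Absence from the KO list means that no KO region was called there and is not a measurement of zero signal.

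H3K36me2 is the dimethylated form of lysine 36 on histone H3. The NSD family of enzymes, NSD1, NSD2 and NSD3, places it over gene bodies and intergenic chromatin, and ASH1L places it at some active genes. The mark is bound by the PWWP domain of the DNA methyltransferase DNMT3A, and it hinders Polycomb repressive complex 2. Treg cells are CD4 T cells that express Foxp3 and restrain other immune cells.

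A few of the regions covered a whole annotated promoter window or a miRNA gene, and the sequences of some of these are shown first. The promoters are the 250 bases upstream of a RefSeq transcription start on GRCm38.p6, read 5′ to 3′ on the strand of the gene, with each CG dinucleotide in capitals. Zbtb7b, which encodes the CD4 lineage factor ThPOK, and Cish, an inhibitor of cytokine signalling, are shown as members of the immune gene lists with such a promoter. The Sh3tc1 promoter lay in one of the WT-only regions with the most tags. That of Pdcd4, which encodes an inhibitor of translation, had the most CG dinucleotides among the WT-only promoters considered.
Zbtb7b, chr3:89393379-89393628, minus strand: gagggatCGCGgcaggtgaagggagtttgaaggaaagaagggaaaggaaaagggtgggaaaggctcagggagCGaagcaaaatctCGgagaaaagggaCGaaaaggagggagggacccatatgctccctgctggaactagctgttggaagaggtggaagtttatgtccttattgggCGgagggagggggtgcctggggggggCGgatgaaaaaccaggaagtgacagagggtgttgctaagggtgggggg
Cish, chr9:107296409-107296658, plus strand: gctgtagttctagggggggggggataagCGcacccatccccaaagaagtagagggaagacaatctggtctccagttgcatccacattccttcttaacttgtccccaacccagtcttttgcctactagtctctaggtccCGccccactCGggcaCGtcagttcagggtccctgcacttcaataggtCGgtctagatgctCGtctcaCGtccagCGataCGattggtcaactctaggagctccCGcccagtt
Sh3tc1, chr5:35729277-35729526, minus strand: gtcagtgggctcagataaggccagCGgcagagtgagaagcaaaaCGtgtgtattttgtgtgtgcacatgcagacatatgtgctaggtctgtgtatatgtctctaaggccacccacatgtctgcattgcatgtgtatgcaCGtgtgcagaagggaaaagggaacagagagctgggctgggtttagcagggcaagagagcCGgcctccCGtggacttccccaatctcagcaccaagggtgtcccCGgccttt
Pdcd4, chr19:53903101-53903350, plus strand: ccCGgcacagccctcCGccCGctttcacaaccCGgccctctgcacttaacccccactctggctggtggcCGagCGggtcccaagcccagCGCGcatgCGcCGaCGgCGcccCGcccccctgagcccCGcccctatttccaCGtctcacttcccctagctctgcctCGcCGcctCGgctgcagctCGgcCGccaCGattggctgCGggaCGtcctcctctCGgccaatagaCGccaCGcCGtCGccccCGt
The stretches of Zbtb7b, Cish and Sh3tc1 held 7, 10 and 6 CG dinucleotides and that of Pdcd4 held 29. A CG dinucleotide, the motif searched and the same on both strands, was present in the same 250 bases of 93.6% of 21045 coding promoters, with a median of 10.

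Of 1005 miRNA hairpins, 2 touched a WT-only region, Mir26a-1 and Mir3060, and 23 touched a region that shared a base with KO. The WT-only regions were the smaller class, with 2469 regions against 5240, or 32.0% of the WT regions of this length. These counts were not tested. The mature RNAs of Mir26a-1 and Mir3060, from RefSeq, are shown with the seed (bases 2 to 8) in capitals.
mmu-miR-26a-5p: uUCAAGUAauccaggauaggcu
mmu-miR-26a-1-3p: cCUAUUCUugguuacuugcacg
mmu-miR-3060-5p: gGGAGUGCuucgugcuucug
mmu-miR-3060-3p: cCAUAGCAcagaagcacuccca
The 4 seeds all differed. The mature miR-26a RNAs lie on the plus strand at chr9:119031811-119031832 and chr9:119031850-119031871, in a region assigned to Ctdspl, a phosphatase gene. The WT-only region over it was 1463 bp long with 21.3 normalised tags, and the nearest KO region was 3309 bp away. At Mir3060 on chromosome 11 the WT-only region was 2455 bp long with 35.6 normalised tags and lay 6634 bp from a KO region.

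The WT-only regions were at the short and less dense end of the WT regions of this length. Their median length was 1304 bp (exact 95% interval of the median 1291 to 1319), against 1560 bp (1535 to 1581) for the regions shared with KO. Together they covered 3.45 Mb, against 9.24 Mb for the shared regions, of which 5.602 Mb lay inside KO regions. The median normalised tag count, scaled by the authors to 10000000 tags per library, was 19.2 per region against 24.8. Per kb of region it was 14.7 against 15.8 normalised tags in the WT library. The densest WT-only region reached 23.6 tags per kb, while 5% of the shared regions had over 21.0. A shared region was on median covered to 59.1% of its length by KO regions.

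The share of WT regions with no base in KO was lower in longer regions. It was 43.0% (exact Clopper-Pearson 95% interval 41.0 to 45.0) in the shortest of 5 length classes and 41.5% in the next, both under 1500 bp. From 1500 to under 2000 bp it was 28.1%, from 2000 to under 3000 bp 12.3%, and from 3000 to under 4000 bp 4.55% (2.80 to 6.93), which was 20 of 440 regions. The share was also lower where tag density was higher. Below 13 normalised tags per kb 55.9% (51.4 to 60.5) of WT regions had no base in KO, and at 20 or more tags per kb 4.04% (2.41 to 6.32). At the shorter limit, 219 of 527 regions in the first 50 bp above 1000 bp had no KO base, and 275 of 584 in the 50 bp below it. At the longer limit these were 1 of 31 regions in the last 100 bp below 4000 bp and 0 of 30 in the first 100 bp from it.

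The reverse choice gave fewer regions. Among 5608 KO regions of the same length, 1096 had no base in a WT region, or 19.5% (18.5 to 20.6), and in each of the 5 length classes the KO share was below the WT share. Over all lengths 23405 of 39645 KO regions, or 59.0%, had no base in WT. These KO-only regions had a median length of 1311 bp and 15.6 normalised tags per kb in the KO library. The calling threshold differed between the libraries. Per the file headers it was 12 tags per 500 bp peak in KO and 13 in WT, which is 8.11 and 7.58 normalised tags, or 16.2 and 15.2 per kb. Of WT-only regions 81.8% had a mean density under the KO threshold, against 57.2% of shared regions. By the deposited score, set against the KO threshold scaled to the WT library, these shares were 45.6% and 34.7%. The mean over a joined region is not the quantity that was thresholded per peak, and the WT-only median of 14.7 per kb lay below the WT threshold too. The part of the threshold and of library depth in the choice of regions was not tested beyond the alternative that kept only WT regions at or above 16.2 tags per kb. There 450 of 2691 regions had no base in KO, or 16.7%.

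**Figure D1:**
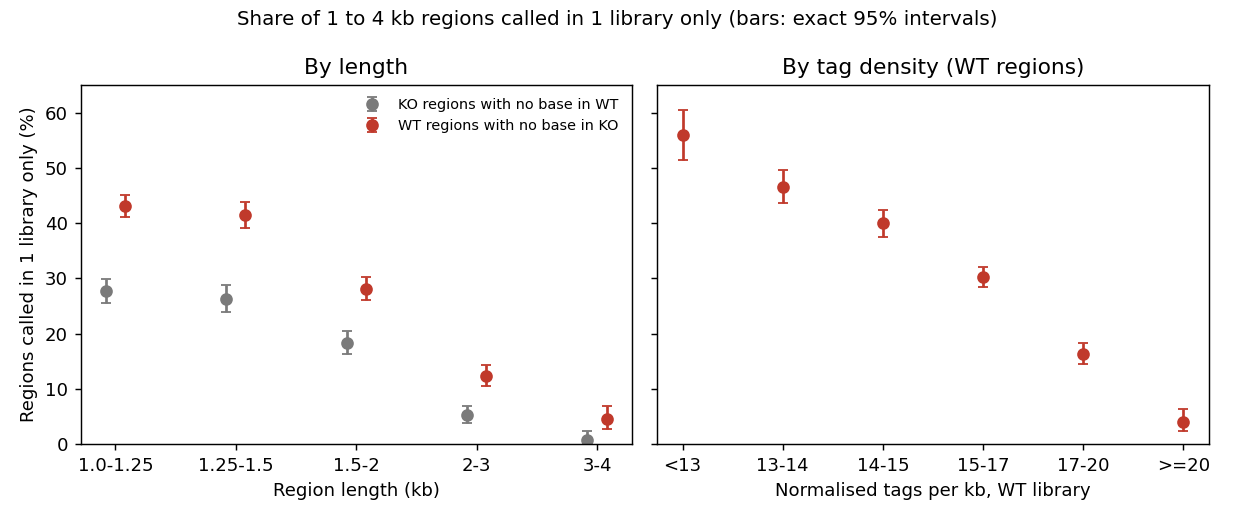
Percentage of 1 to 4 kb regions called in 1 library only, by region length in kb (left, KO regions without a WT base in grey and WT regions without a KO base in red) and by normalised tags per kb in the WT library (right, WT regions). Points are percentages with exact 95% intervals for counting error, and both panels go down toward longer and denser regions, from 55.9% to 4.04% in the right panel.

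Most WT-only regions had a KO region nearby. The median distance from edge to edge was 3617 bp (3338 to 3953). Within 1000 bp lay 499 regions, or 20.2%, and from 1000 to under 5000 bp 926 regions, or 37.5%. A further 531 regions, or 21.5%, lay 10 to under 50 kb from any KO region, and 126, or 5.10% (4.27 to 6.05), at least 50 kb away. The closest was 2 bp from a KO region, and 47 were within 100 bp, while 60 shared regions had under 100 bp inside KO regions. The nearest KO region was usually narrow, with a median length of 500 bp and 9.13 normalised tags, and in 41.0% of cases it had a base in another WT region.

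The WT-only regions stood in sparser surroundings than the shared ones in both libraries. For shared regions the median distance to the nearest KO region that did not overlap them was 1911 bp (1847 to 1975). The nearest other WT region was 2773 bp away for WT-only regions, against 1528 bp for shared regions. Within 10 kb on either side, other WT regions covered a median of 1412 bp around WT-only regions, against 2906 bp around shared regions. KO regions that did not overlap the region itself covered 943 bp around WT-only regions, against 2278 bp around shared ones. No such KO region lay within 10 kb of 26.6% (24.9 to 28.4) of WT-only and 12.6% (11.7 to 13.5) of shared regions. When shared regions were weighted to the same 5 classes of length and 5 of tag density as the WT-only regions, that share was 14.4%. Summed over WT-only regions, the KO cover of these flanks was 77.3% of the WT cover, and around shared regions it was 83.8%. Both values leave out the region itself. Around shared regions, KO regions that overlap it are also left out, with their parts in the flanks. Over all regions on these chromosomes, with none left out, the KO regions came to 74.3% of the WT length. These are unlike measures and cannot be ranked.

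Few WT-only regions bordered long domains. A WT region of 4 kb and over lay within 10 kb of 59 of them, or 2.39% (1.82 to 3.07), against 10.6% (9.77 to 11.5) of shared regions. For KO regions of 4 kb and over these shares were 1.90% and 9.14%. No other region of either library lay within 10 kb of 250 WT-only regions, or 10.1% (8.96 to 11.4), against 4.79% of shared regions. KO-only regions of 1 to 4 kb lay within 10 kb of 154 WT-only regions, or 6.24%, and of 9.33% of shared regions. Neighbouring regions of 1 library are not independent, so the intervals given cover counting error only and are no test between the classes.

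**Figure D2:**
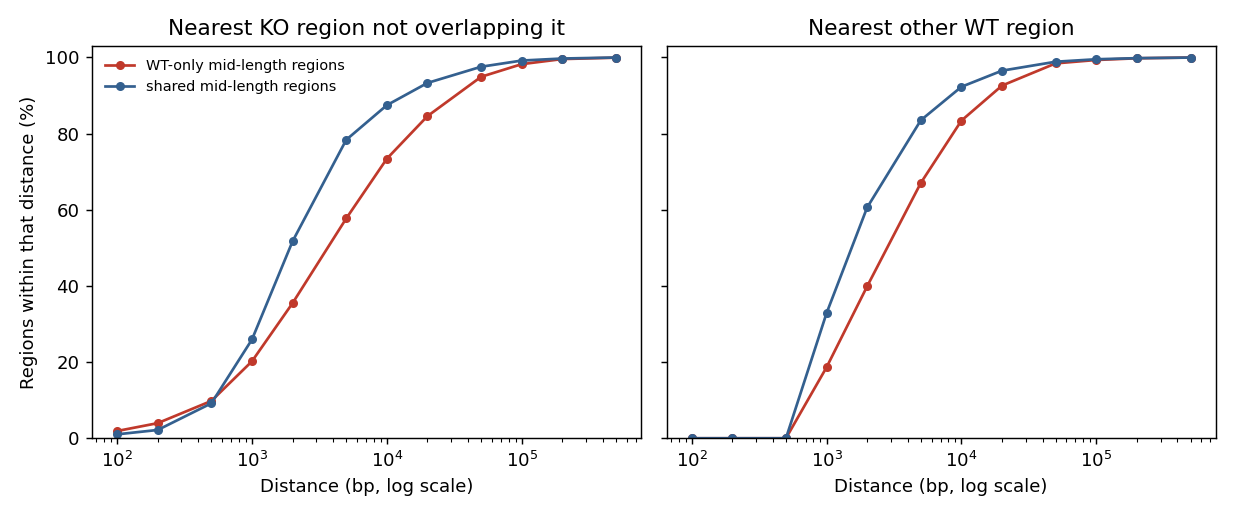
Percentage of WT-only (red) and shared (blue) 1 to 4 kb WT regions that lie within a given distance in bp (log axis) of the nearest KO region not overlapping them (left) and of the nearest other WT region (right). At 10 kb the left curves stand at 73.4% for WT-only and 87.4% for shared regions, and the right curves at 83.4% and 92.3%.

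The WT-only regions lay mainly within protein-coding genes, as did the shared and the KO-only ones. The midpoint was inside a coding gene body for 65.8% (63.9 to 67.7) of WT-only and 61.2% (59.9 to 62.5) of shared regions, a difference of 4.61 percentage points (2.29 to 6.91, counting error). Among KO-only regions the share was 67.7% (64.8 to 70.5). The WT-only minus shared difference was 2.17 points after the weighting for length and density, 1.99 points with KO regions within 1000 bp counted as shared and 1.43 points with 5000 bp added to each side of the genes. It was 11.7 points for regions of 2000 to under 4000 bp and 8.85 points in the higher-scoring 50%. Host genes were long, with a median of 83815 bp for WT-only and 70516 bp for shared regions. A host of 100 kb and over held 29.2% (27.4 to 31.0) of WT-only regions, against 23.2% (22.1 to 24.4) of shared ones. Of the 844 WT-only regions outside genes, the median distance to the nearest coding gene was 22732 bp, and 283 of all WT-only regions were over 50 kb from one.

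Promoters were less often included. A coding promoter window, 250 bp upstream to 50 bp downstream of a start, was touched by 2.997% (2.36 to 3.75) of WT-only and 6.26% (5.62 to 6.95) of shared regions, and by 4.91% of shared regions after weighting. Among KO-only regions the share was 7.48% (5.99 to 9.20). Whole windows lay in WT-only regions for 52 genes, against 266 genes for shared regions. The GC content of these windows had a median of 60.7% in WT-only and 59.3% in shared regions, against 56.7% for all coding promoters. An observed to expected CpG ratio of at least 0.6 was found in 43.4% (29.8 to 57.7) of WT-only windows and 43.2% (37.6 to 49.02) of shared windows, against 48.1% of all.

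Along the gene body, a smaller share of WT-only than of shared regions lay at the 5′ end and a larger share at the 3′ end, the 5′ difference being seen in hosts under 100 kb. In hosts of 10 kb and over with a known strand, the first 20% of the gene held 19.3% (17.1 to 21.6) of WT-only regions, against 23.8% (22.1 to 25.5) of shared regions. The last 20% held 22.2% (19.95 to 24.7) of WT-only regions, against 17.9% (16.3 to 19.5) of shared regions. After weighting, the shared regions had 21.0% in the first and 19.9% in the last 20%. In hosts of 10 to under 100 kb the first 20% held 18.7% of WT-only and 26.4% of shared regions, while in longer hosts these were 19.96% and 19.8%. The last 20% held 20.1% of WT-only and 15.9% of shared regions in the shorter hosts, and 24.7% and 20.9% in the longer ones.

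**Figure D3:**
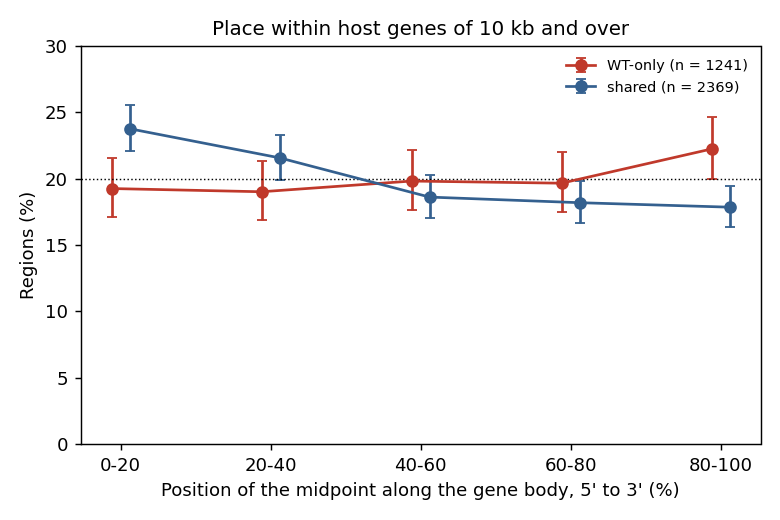
Percentage of region midpoints in each 20% of the host gene body, 5′ to 3′, for 1241 WT-only (red) and 2369 shared (blue) regions in hosts of 10 kb and over, with exact 95% intervals for counting error. The dotted line marks an even spread of 20%, and the WT-only points stand between 19.02% and 22.2%.

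By chromosome, from 23.6% (13.2 to 37.02) of the WT regions on chromosome X to 38.9% (33.3 to 44.9) of those on chromosome 16 had no base in KO. The share was 35.4% (32.2 to 38.7) where fewer than 5 coding genes lay within 500 kb and 24.3% (20.7 to 28.3) where at least 40 did.

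A WT-only region shared a base with 1298 of 19190 coding genes of 2 kb and over, or 6.76%, and a shared region with 1917, or 9.99%. Of the 1298 genes, 1135 also held a KO region elsewhere in the body, and 520 held a shared region of 1 to 4 kb. Over all 19190 coding genes of 2 kb and over, 45.1% held a KO region of any length. The 1298 genes were longer, with a median of 63443 bp against 21325 bp for all. No KO region at all lay in the remaining 163 of the 1298 genes. Of these, 3 held more than 1 WT-only region and were picked out after their values were seen. They were the integrin gene Itgad, with 2585 bp in WT-only regions, the zinc finger gene Zfp839, with 2278 bp, and the granzyme gene Gzmc, with 1822 bp. None of these 3 held a shared region of 1 to 4 kb, which nearly follows from the choice, since a shared region has a base in KO. In 1025 genes there was 1 WT-only region, in 187 there were 2, and in 86 there were 3 or more. Holding a WT-only region was more frequent in longer genes, at 1.83% of genes of 2 to under 10 kb and 19.6% of the 557 genes of 300 kb and over. For shared regions the corresponding shares were 5.36% and 17.8%.

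The 12 genes with the most base pairs in WT-only regions were all longer than 100 kb. Mad1l1, which encodes a spindle checkpoint protein, held 10 such regions with 14152 bp, the most of any gene, beside 11 shared regions. All KO regions together covered 10.1% of the Mad1l1 body and all WT regions 19.2%. Its 10 WT-only regions had from 17.8 to 31.5 normalised tags and lay 726 to 5371 bp from a KO region. Snx29, a sorting nexin gene, held 7 WT-only regions with 12609 bp. Its body had 20 KO and 58 WT regions, covering 2.82% and 10.6%. Tns1, which encodes the focal adhesion protein tensin, held 6 regions with 10237 bp, with 6.56% covered in KO and 17.2% in WT.

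The chromatin remodeller gene Chd7 held 6 WT-only regions with 8257 bp and 1 shared region. It was covered to 3.47% in KO and 10.4% in WT. Vav2, a guanine nucleotide exchange factor gene, held 6 with 7473 bp, and its cover was 13.7% in KO and 23.7% in WT. In Nek6, a mitotic kinase gene, 4 WT-only regions held 8091 bp, and KO and WT covered 7.001% and 20.8%. The translation factor gene Ctif held 8719 bp, the zinc finger gene Hivep3 8059 bp and the centrosomal gene Sdccag8 7955 bp. Wwox, an oxidoreductase gene, held 7673 bp, Bach2 7603 bp and Vps13d, a lipid transfer protein gene, 7585 bp. These genes were ranked by WT-only base pairs, so their lower KO cover follows in part from the choice. With only WT regions at or above the KO tag threshold, 4 of the 12 held no WT-only base pairs, namely Tns1, Sdccag8, Wwox and Vps13d. Snx29 then held 1161 bp and Mad1l1 3323 bp.

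Bach2, a transcriptional repressor that restrains effector differentiation, had the highest KO cover of the 12, at 18.2%, against 21.8% in WT. It held 5 WT-only regions beside 20 shared ones. The region at chr4:32358197-32360090 had 29.7 normalised tags and lay 191 bp from a KO region of 5949 bp, whereas that at chr4:32462707-32463775 lay 14343 bp from any.

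**Figure D4:**
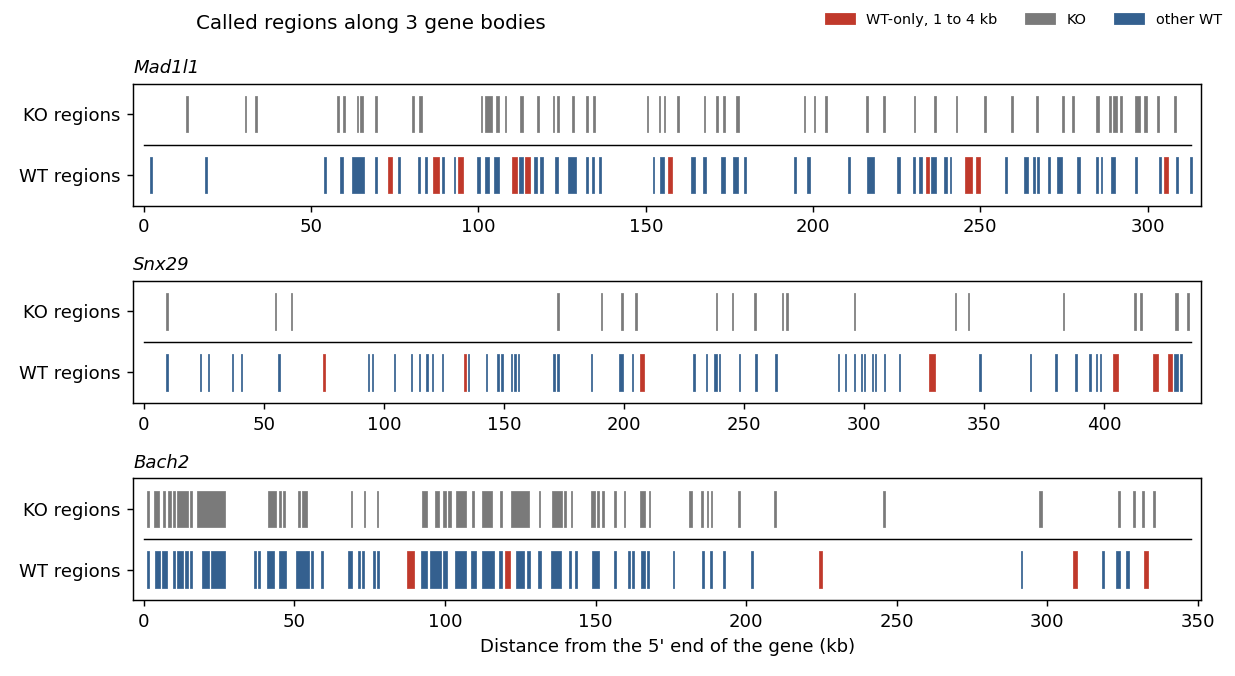
Called regions along Mad1l1, Snx29 and Bach2, drawn to scale in kb from the 5′ end of each gene, with KO regions above WT regions. WT-only regions of 1 to 4 kb are red (10, 7 and 5 in the 3 genes), other WT regions blue and KO regions grey, and in Snx29 there are 20 KO and 58 WT regions.

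The WT-only region with the most tags was at chr6:116004004-116007977, 10651 bp from Plxnd1, a semaphorin receptor gene, with 59.7 normalised tags over 3973 bp. A KO region of 500 bp with 8.45 normalised tags lay 1591 bp away. The next, at chr3:115672948-115676304, had 59.2 normalised tags over 3356 bp and was 35806 bp from S1pr1, the sphingosine-1-phosphate receptor by which lymphocytes leave lymphoid organs. The nearest KO region there, of 801 bp, lay 3280 bp away. A second WT-only region, of 1416 bp with 24.8 normalised tags, reached 401 bp into S1pr1. That gene also held 1 KO region of 1466 bp, 1758 bp from it.

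In Sh3tc1, the region over the promoter printed above, at chr5:35728231-35731254, had 53.0 normalised tags and lay 2328 bp from a KO region of 824 bp. Others among the 6 with the most tags were in Adssl1, Als2cl and Prrc2b, with 49.8 to 52.5 normalised tags. KO regions lay 507 to 1765 bp from them. Among the 4 longest, 3686 bp in Rgs12, a regulator of G protein signalling, lay 11737 bp from any KO region, and 3465 bp in Brsk2, a kinase gene, lay 1949 bp away.

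The 4 regions farthest from any KO region had tag densities on either side of the WT-only median of 14.7 per kb. A region of 1106 bp near Syt1, the synaptic vesicle calcium sensor, had 15.4 normalised tags and stood 596690 bp from a KO region and 905848 bp from another WT region. One within Stk3, a Hippo pathway kinase gene, had 17.8 normalised tags and lay 424372 bp from a KO region, and one near Ralyl had 19.5 normalised tags at 343931 bp. The 3 with the highest tag density, chosen after their values were seen, were in Med12l, with 25.4 normalised tags and 73001 bp from a KO region, near Uaca at 23441 bp and in Ext1 at 579 bp.

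Genes of T cell identity held many WT regions of 1 to 4 kb, and few of these were WT-only. A WT-only region was held by 7 of 30 genes, or 23.3% against 6.76% of all coding genes, while 23 of 30 held a shared region. The list had a median gene length of 33867 bp, against 21325 bp for all coding genes of 2 kb and over. Among all genes of 30 to under 100 kb, 9.05% held a WT-only region. Of the 91 WT regions of 1 to 4 kb in the T cell identity genes, 11 were WT-only, or 12.1% (6.19 to 20.6), against 32.0% of all such WT regions. The 91 regions were longer and denser than the rest, with medians of 1778 bp and 16.02 normalised tags per kb, against 1448 bp and 15.4 over all 7709. The part of length and density in the lower share was not tested.

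Runx3 and Runx1, transcription factors of T cell development, held 3571 and 3210 bp in 2 WT-only regions each. One in Runx1, of 1966 bp with 30 normalised tags, lay 20 bp from a KO region. Ets1, another lymphoid transcription factor, held 1 of 2921 bp with 44.3 normalised tags, 492 bp from a KO region of 1213 bp, beside 12 shared regions. Cd247, the zeta chain of the T cell receptor complex, held 2 with 15.2 and 15.4 normalised tags. Tox, a transcription factor of T cell development, also held 2, with 1654 bp inside the gene. Bcl11b, a factor of T cell commitment, and the kinase gene Fyn held 1 each, of 1165 and 1140 bp. Runx3, Runx1 and Ets1 held no WT-only base pairs when a KO region within 1000 bp counted as shared, and Runx1, Ets1 and Cd247 held none at the KO tag threshold.

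Treg signature genes with a WT-only region were 3 of 27, or 11.1% against 6.76% of all coding genes, and 13, or 48.1% against 9.99%, held a shared one. Of the 27 WT regions of 1 to 4 kb in this list, 4 were WT-only, or 14.8% (4.19 to 33.7), against 32.0% of all such WT regions. That interval includes the 32.0%, and the gene count was not tested against its background. Nrp1, a semaphorin co-receptor, held 3656 bp in 2 regions, the larger with 40.2 normalised tags and 451 bp from a KO region. The whole Nrp1 body held 4099 bp in KO regions and 11585 bp in WT regions. Nt5e, which encodes the adenosine-producing enzyme CD73, held 1 of 1394 bp and no shared one. Capg, an actin-capping protein gene, held 1 of 1119 bp. Nt5e and Capg held none at the KO tag threshold. Foxp3, the lineage factor of Treg cells, held no WT-only region and 1 shared region of 1 to 4 kb. No WT-only region lay in Cxcr4, or in the H3K36 methyltransferase genes Nsd2, Nsd1, Nsd3, Ash1l and Setd2. Nsd2 itself held 1 KO region of 500 bp and no WT region, and region calls do not show whether the gene was deleted.

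Among signalling lists, IL-2 and STAT5 genes had 3 of 16 members with a WT-only region, or 18.8% against 6.76% of all coding genes, and 10, or 62.5% against 9.99%, with a shared one. Stat5b, a transcription factor downstream of IL-2, held 1496 bp with 24.5 normalised tags, 1930 bp from a KO region. Bcl2, which encodes a survival protein, held 1211 bp. At Cish the region was mostly upstream, 53 bp of its 1214 bp lying in the gene, with 20.7 normalised tags, 516 bp from a KO region. Bcl2 and Cish held none when a KO region within 1000 bp counted as shared. In the NF-kB, NFAT and AP-1 list 2 of 26 genes held one, or 7.69%, namely Bach2 and Nfatc1. Nfatc1, which encodes a calcium-regulated transcription factor, held 2469 bp in 2 regions.

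TGF-beta pathway genes had 4 of 18 members with a WT-only region, or 22.2% against 6.76% of all coding genes, and 6, or 33.3% against 9.99%, with a shared one. Ski, which encodes a repressor of Smad signalling, held 3050 bp in 2 regions, 415 and 663 bp from KO regions. The ligand gene Tgfb3 held 2272 bp in 2 regions and no shared one. Its body had 500 bp in KO and 3272 bp in WT regions. Smad7, an inhibitory Smad, held 2039 bp, and the receptor gene Tgfbr2 held 1118 bp, 515 bp from a KO region. Ski, Smad7 and Tgfbr2 held none when a KO region within 1000 bp counted as shared, and Ski, Smad7 and Tgfb3 held none at the KO tag threshold.

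The effector lineage list had 3 of 22, or 13.6% against 6.76% of all coding genes. Rora, a nuclear receptor of helper T cells, held 3 regions with 4272 bp, and its body had 24 KO and 48 WT regions. The Zbtb7b region, over the promoter printed above, had 991 bp in the gene, and a KO region of 4030 bp with 74.7 normalised tags lay 1755 bp away. Chemokine receptor and homing genes had 3 of 24, or 12.5%, among them the chemokine receptor gene Ccr6 with 1220 bp and S1pr1. Rora, Zbtb7b and Ccr6 held none at the KO tag threshold.

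Of genes that write, erase or read H3K36 methylation, 3 of 20 held a WT-only region, or 15% against 6.76% of all coding genes, and 4 a shared one, or 20% against 9.99%. Kdm2b, of the KDM2 family that demethylates H3K36me2, held 3728 bp in 2 regions, 1 of them of 2601 bp with 35.8 normalised tags. Kdm4b, a demethylase gene, held 2938 bp in 2 regions, and Dnmt3a, which encodes a DNA methyltransferase, 1655 bp in 1. All 3 had KO regions elsewhere in the body, and none of the 3 held a WT-only region at the KO tag threshold. Of the 12 WT regions of 1 to 4 kb in this list, 5 were WT-only, or 41.7% (15.2 to 72.3). That interval includes the 32.0% of all such WT regions, so the count cannot be told from it.

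No costimulatory or inhibitory receptor gene held a WT-only region, though 9 of 23 held a shared one. All 14 WT regions of 1 to 4 kb there had a base in KO. The exact interval of the WT-only share, for counting error only, reached up to 23.2%, against 32.0% of all WT regions of this length. These regions lay in 9 genes of 1 library and are not independent, so the interval is no test against the 32.0%. These 14 had median values of 1774 bp and 16.5 normalised tags per kb, against 1448 bp and 15.4 over all. The part of length and density was not tested. None of 17 Polycomb and H3K27 enzyme genes and none of 18 housekeeping genes held one, against 6.76% of all coding genes. The housekeeping genes had a median length of 5440 bp, and 1.83% of all genes of 2 to under 10 kb held one. In these short lists the counts of genes cannot be told from the background. The NF-kB, NFAT and AP-1 list had 7 WT-only regions among 44 WT regions of 1 to 4 kb, or 15.9% (6.64 to 30.1). Bach2 held 5 of the 7 and 20 of the 37 shared ones. The IL-2 and STAT5 list had 3 among 31, or 9.68% (2.04 to 25.8). Over all WT regions of this length the share was 32.0%, and the part of density in these lower shares was not tested. The mid-length regions of both lists were denser than the 15.4 normalised tags per kb of all WT regions of this length, with medians of 16.5 and 17.1.

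Genes of other splenic cells held WT-only regions at counts that the lists are too short to tell from the 6.76% of all coding genes. Of 14 B cell genes 1, or 7.14%, held one. This was Fcer2a, the low-affinity IgE receptor, with 1273 bp and 18.9 normalised tags, and it had no KO region. Myeloid and dendritic, NK and CD8, erythroid and developmental regulator genes held none of 12, 7, 5 and 26 measured members. In a list of long neuronal and liver genes, 1 of 16, or 6.25%, held a WT-only region. This was the neuronal adhesion gene Dscam, with 2935 bp in 2 regions. That list had a median gene length of 752772 bp, and 19.6% of all genes of 300 kb and over held a WT-only region. Over the marker sets, all 7 T cell markers had a region in each library, with 45.8% of their pooled bodies covered in KO and 44.2% in WT. Of 5 Treg markers 4 had one in each library, with Ctla4 at 0 in both. B cell markers were covered to 2.01% in KO and 2.64% in WT, with Ms4a1 among the markers at 0 in both. Myeloid markers were covered to 6.68% in KO and 4.92% in WT, with Lyz2 at 0 in both. NK and CD8 markers had a region in 0 of 5 genes in KO and 3 of 5 in WT, where they were covered to 4.87%, with Cd8a and Ncr1 at 0 in both. Erythroid markers had one in 0 of 5 genes in KO and 1 of 5 in WT, with both beta-globin genes and Epor among those at 0 in both. WT-only regions lay in 1 of the 7 T cell markers, Bcl11b, and in no marker of the other sets. The part of other cells in the WT-only regions was not tested.

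**Figure D5:**
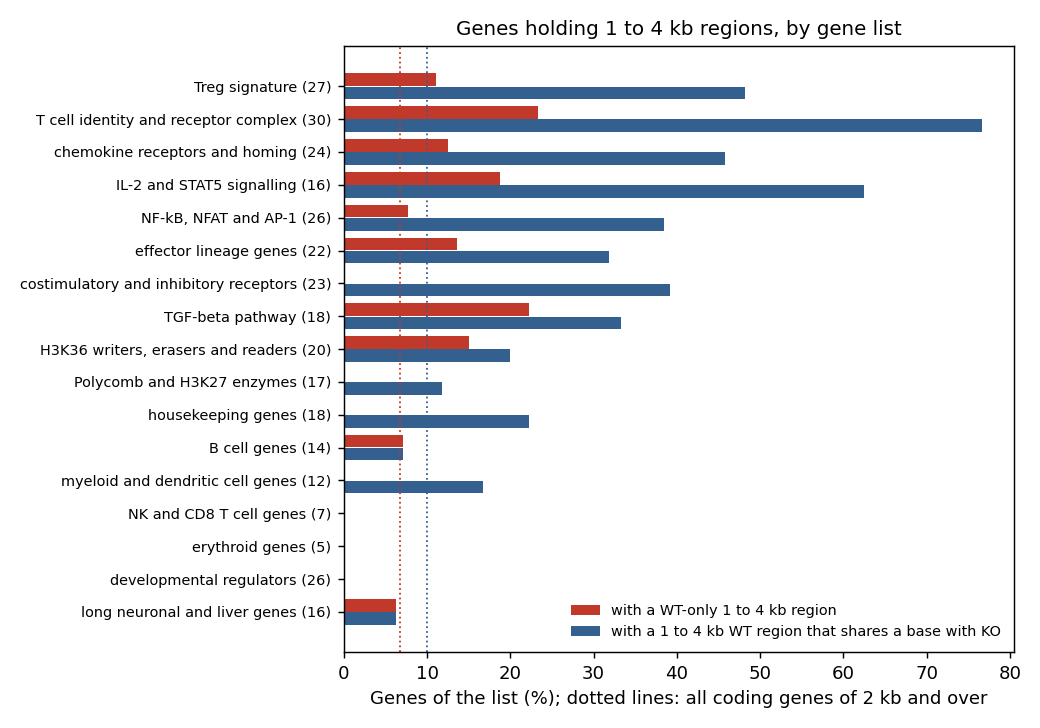
Percentage of genes of each list that hold a WT-only region of 1 to 4 kb (red) or a WT region of that length that shares a base with KO (blue), with the number of measured genes in brackets. Dotted lines mark all coding genes of 2 kb and over, at 6.76% and 9.99%. In the T cell identity list 23.3% of genes hold a WT-only and 76.7% a shared region.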

How the data were processed

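H3K36me2 was profiled in 1 Nsd2 KO and 1 WT library of splenic Treg cells, prepared with a ChIP kit per the labels' protocols. Tools listed by the submitters' processing notes, with no versions, are deepTools, Bowtie2, HOMER, Trim Galore and Picard, and the build is mm10. Per the file headers, HOMER findPeaks ran in its histone style on a single library each time with no control, joining 500 bp peaks into regions with a minimum distance of 1000 bp. The signal of a region is the normalised tag count that the authors scaled to 10000000 tags, which removes any genome-wide change in the mark. The score deposited by the authors was set against the scaled KO threshold and used to rank regions in an alternative. The deposited clonal fold change, a ratio, was not used.

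Overlaps (at least 1 bp) and distances were computed in Python 3.11.15 with numpy 2.4.6, pandas 2.3.3 and scipy 1.17.1, and figures drawn with matplotlib 3.10.9. Length is end minus start, and region coordinates are as deposited. Genes and promoters are from RefSeq on GRCm38.p6, the assembly called mm10. A region was assigned to the longest coding gene holding its midpoint. Intervals are exact binomial (95%) and cover counting error only. Neighbouring regions of 1 library are not independent. Named were the 12 genes with the most WT-only base pairs, the 6 regions with the most tags, the 4 longest and the 4 farthest from KO. Up to 5 holders of a WT-only region were named from each gene list by base pairs inside such regions, and Bcl11b, Fyn, Pdcd4 and the miRNA genes were named after their values were seen. The neighbourhood, position in the gene, gene density, promoter and weighting analyses were also chosen after the files were seen. Nsd2, Nsd1, Nsd3, Ash1l, Setd2, Foxp3 and Cxcr4 were named whatever their values. The members and lists were chosen with earlier results of these data known. List genes under 2 kb were not measured, and a few genes that the rule names are not reported here. Alternatives changed the overlap rule, the length limits, the tag threshold, the score, the stitching, the chromosomes and the gene model.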

Additional observations from a re-analysis of the deposited data

How the results depend on the processing

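No paired analysis was possible because each genotype had 1 library, and for the same reason no replicate could be left out. The gene-body difference stayed positive under every alternative computed for it, while the levels depended on the definition of a WT-only region. The percentage of WT regions with no KO counterpart, 32.0% as reported, was 33.4% when 10% of the bases had to be shared, 25.6% when a KO region within 1000 bp counted as shared, 37.99% from 1000 to under 2000 bp and 10.2% from 2000 to under 4000 bp. It was 16.7% at the KO tag threshold, 26.97% in the higher-scoring 50% and 37.8% after merging regions closer than 1000 bp. The gene-body difference of 4.61 points became 1.99 points with KO regions within 1000 bp counted as shared, 11.7 from 2000 to under 4000 bp, 8.85 in the higher-scoring 50%, 1.43 with gene flanks of 5000 bp and 2.17 after weighting, which was chosen after seeing the data. The median distance to KO of 3617 bp was 3329 bp with the 10% overlap, which by construction adds regions that overlap KO. With the 1000 bp margin, which by construction removes the nearest regions, it was 5567 bp. It was 2486 bp from 2000 to under 4000 bp, 2629 bp at the KO threshold, 3248 bp in the higher-scoring 50% and 4614 bp after merging. Between midpoints it was 4723 bp, and to KO regions of at least 1000 bp 47905 bp. By construction neither of these can be below 3617 bp. The median density of 14.7 tags per kb was 14.1 from 2000 to under 4000 bp. It was 17.1 at the KO threshold and 15.3 in the higher-scoring 50%, both of which remove regions of low density or score. After merging it was 13.5, where the bases between called regions were added to the length but their tags were not counted. Genes with a WT-only region, 1298 as reported, were 126 from 2000 to under 4000 bp, 274 at the KO threshold and 618 in the higher-scoring 50%, settings with fewer regions. Of 39 named genes, 22 held no WT-only region at the KO threshold and 8 none with the 1000 bp margin. Where no construction is given, the cause was not tested. How many regions 2 libraries of 1 genotype would fail to share is unknown here.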

Other observations

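On the remaining sequences of the assembly, which were left out above, 2 of 27 WT regions of 1 to 4 kb had no base in a KO region.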
